A study of Mus musculus with 7 samples.

Results

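Of the 113820 regions in a table of chromatin accessibility of CD4+ T cells from mice infected with Nippostrongylus brasiliensis, 816 (0.717%) were open in lung IL-4+ cells above all other libraries, and these are described here. The regions were chosen by their accessibility values. A region was taken when the lowest of the 3 lung IL-4+ libraries exceeded the highest of the other 4 libraries by at least 0.5 on the log2 scale and the mean of the 3 lung IL-4+ libraries was at least 2.32, a density of 5 normalized insertions per kilobase. The distance between the lowest lung IL-4+ library and the highest other library is called the gap below. The accessibility values that made this choice are given as a description. Adjusted p-values are given further on for lung IFNγ+ against lymph node IL-4+ cells. That contrast was not itself part of the rule, but the rule used values of both populations, so these p-values are a description too. The mirrored rule gave 2498 regions (2.19%) for IL-4+ cells of the lymph node (LN) and 3281 (2.88%) for lung IFNγ+ cells.

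N. brasiliensis is a parasitic nematode whose larvae pass through the lung. CD4+ T helper 2 (Th2) cells produce IL-4, IL-5 and IL-13 and protect tissues against helminths, while most IL-4-producing T cells of the lymph node are follicular helper (Tfh) cells, which help B cells. Th2 identity rests on the transcription factor GATA3, and effector Th2 cells of the lung carry ST2, the receptor for the epithelial alarmin IL-33. Accessible DNA outside promoters often marks enhancers, where lineage factors such as GATA3 and bZIP factors of the AP-1 and BATF families bind.

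ATAC-seq uses the transposase Tn5, an enzyme that cuts open chromatin and attaches adapters there, and the number of its insertions measures accessibility. All mice were C57BL/6 and were infected subcutaneously with 500 L3 larvae, and cells were sorted 8 days later, with 50000 cells per library. IL-4+ cells were GFP+ CD4+ T cells of IL-4-4get mice from the mediastinal lymph node (2 libraries) or the lung (3 libraries), and IFNγ+ cells were YFP+ CD4+ T cells of IFN-gamma GREAT mice from the lung (2 libraries). The 4get reporter marks cells that transcribe Il4, whether or not they secrete the cytokine. IL-4+ cells of both tissues thus shared a reporter allele that the IFNγ+ cells lacked, so that reporter strain and population cannot be told apart between them. Per the study's text, the libraries of a population came from different mice of a single experiment. The age of the mice was not given in the sources used here.

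The libraries held between 14005923 and 91681969 insertions by a lower bound rebuilt from the table, with the fewest in lung IL-4+ replicate 3. They fell into 2 classes of spread that crossed the populations. In 3 libraries (lung IL-4+ replicates 2 and 3 and replicate 1 of LN IL-4+) the interquartile range of the log2 count per region was 1.64 to 1.73, and in the other 4 it was 2.87 to 3.05. Lung IL-4+ replicate 1 correlated more with the lung IFNγ+ libraries (Pearson's r over regions 0.881 and 0.895) than with lung IL-4+ replicates 2 and 3 (0.813 and 0.776). It also correlated more with LN IL-4+ replicate 2 (0.84), which is in its class of spread. LN IL-4+ replicate 1 correlated more with lung IL-4+ replicates 2 and 3 (0.783 and 0.781) than with LN IL-4+ replicate 2 (0.763). The promoters of all 14 T cell identity genes examined, among them Cd3e, Cd4 and Lck, had a density of at least 5 in every library.

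The 8 stretches below show the GATA and bZIP consensus sequences whose shares among these regions are given further on. They were taken from the regions with the largest gaps, from those at Th2 genes and from the genes with the most regions. Capitals mark the GATA consensus AGATAA, or its reverse complement where the site lies on the minus strand. They also mark the bZIP consensus TGANTCA. The letters are those of the plus strand in the RefSeq GRCm38 genome. The names are those of the nearest protein-coding transcription start.
Eef2kmt, chr16:5366668-5366847: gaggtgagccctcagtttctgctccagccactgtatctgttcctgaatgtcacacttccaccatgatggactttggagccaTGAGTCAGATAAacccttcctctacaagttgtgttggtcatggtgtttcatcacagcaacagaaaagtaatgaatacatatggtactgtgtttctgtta
Rad50, chr11:53693314-53693470: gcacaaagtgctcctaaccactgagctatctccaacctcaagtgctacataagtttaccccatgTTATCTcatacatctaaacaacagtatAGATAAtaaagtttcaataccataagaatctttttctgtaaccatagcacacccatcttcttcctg
Adck5, chr15:76578825-76579004: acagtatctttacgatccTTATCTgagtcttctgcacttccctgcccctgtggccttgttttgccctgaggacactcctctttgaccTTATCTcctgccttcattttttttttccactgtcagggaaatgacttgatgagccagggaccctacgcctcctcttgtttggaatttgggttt
Il6, chr5:29965883-29966062: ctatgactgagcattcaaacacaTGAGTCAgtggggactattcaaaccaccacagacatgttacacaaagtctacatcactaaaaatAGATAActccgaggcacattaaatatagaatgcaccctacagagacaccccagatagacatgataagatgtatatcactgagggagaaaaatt
Il10, chr1:130996212-130996391: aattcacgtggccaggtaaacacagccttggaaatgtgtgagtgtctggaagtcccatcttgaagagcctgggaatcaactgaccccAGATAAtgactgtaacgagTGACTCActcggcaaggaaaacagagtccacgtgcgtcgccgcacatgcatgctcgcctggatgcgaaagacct
Runx1, chr16:92793889-92794068: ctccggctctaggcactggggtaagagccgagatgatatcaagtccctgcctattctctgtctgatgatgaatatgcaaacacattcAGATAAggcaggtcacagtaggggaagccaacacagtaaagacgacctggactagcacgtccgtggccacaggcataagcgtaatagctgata
Itpr1, chr6:108245233-108245412: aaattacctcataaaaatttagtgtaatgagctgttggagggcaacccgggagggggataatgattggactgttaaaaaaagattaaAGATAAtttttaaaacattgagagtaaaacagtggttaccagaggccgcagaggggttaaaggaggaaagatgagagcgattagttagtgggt
Pparg, chr6:115481957-115482136: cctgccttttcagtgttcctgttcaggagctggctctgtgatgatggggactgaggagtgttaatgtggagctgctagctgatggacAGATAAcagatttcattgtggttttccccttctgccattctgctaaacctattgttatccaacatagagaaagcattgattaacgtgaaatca
In that near Eef2kmt the bZIP and the GATA consensus share a base, and that in the intron of Rad50 holds the GATA consensus on both strands. Those near Il6 and Il10 hold 1 match of each kind. The stretches at Runx1, Itpr1 and Pparg hold 1 GATA match each, and that at Adck5 holds 2.

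The gap of the 816 regions ranged from 0.50 to 1.67 with a median of 0.70, and it was at least 1 in 134 of them (16.4%). Their median density was 9.52 in lung IL-4+ cells, 3.32 in LN IL-4+ cells and 4.00 in lung IFNγ+ cells. The median difference was 1.51 on the log2 scale over LN IL-4+ cells (2.84-fold) and 1.26 over lung IFNγ+ cells (2.39-fold). The regions were thus more open in lung IL-4+ cells by degree, and the word only did not hold for all of them. Both other populations were below a density of 5 in 484 regions (59.3%), whereas 194 (23.8%) reached it in both, 115 (14.1%) in lung IFNγ+ cells only and 23 (2.82%) in LN IL-4+ cells only. The highest of the other libraries was a lung IFNγ+ library in 499 regions (61.2%) and an LN IL-4+ library in 317 (38.8%). Lung IFNγ+ replicate 2, the deepest library, alone was the highest in 416 (51%), and replicate 1 in 83 (10.2%). The lowest lung IL-4+ library was replicate 1 in 260 regions, replicate 2 in 246 and replicate 3 in 310, so each of them set the lower bound in a part of the regions. The lung IL-4+ libraries held at least 39 insertions in each region, with medians of 310, 191 and 116 in replicates 1 to 3.

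The cutoff of 0.5 fell in a continuous distribution. The last region inside it was a promoter region near Ints1, which had 1.86 and 1.34 in LN IL-4+, 2.37, 2.36 and 3.21 in lung IL-4+ and 1.79 and 1.54 in lung IFNγ+ libraries. The first outside was a promoter region near Ifi47, an interferon-induced GTPase, with 2.03 and 2.90, 4.40, 3.72 and 3.99, and 2.85 and 3.23 in the same order. Without the density minimum, 1000 regions met the gap.

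Whether the pattern recurs in a library that did not choose the regions was asked by applying the rule to 6 libraries and reading the one left out. Of 1173 regions chosen without lung IL-4+ replicate 2, 91% had that library above all 4 LN IL-4+ and lung IFNγ+ libraries, against 20.8% of all regions. Of 1468 chosen without replicate 3, 84.5% did, against 23% of all regions. Without replicate 1, the rule gave 2716 regions and replicate 1 was above the 4 other libraries in 54% of them, against 17.1% of all regions, with a median gap of 0.07. Replicate 1 had the lowest share of the 3. The 2 lung IL-4+ libraries that made the choice without it had the narrower class of spread, and replicate 1 had the wider. The part of this in its share was not tested.

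The comparison libraries were held out in the same way. LN IL-4+ replicate 1 lay below all lung IL-4+ libraries in 80.1% of 1292 regions chosen without it (27.9% of all regions), and replicate 2 in 91.9% of 1084 (28.9%). Lung IFNγ+ replicate 1 did so in 99.7% of 904 regions (27%) and replicate 2 in 97.3% of 1238 (26.4%). The libraries that remained took part in both the choice and the reading, so these shares describe recurrence and carry no test.

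**Figure D1:**
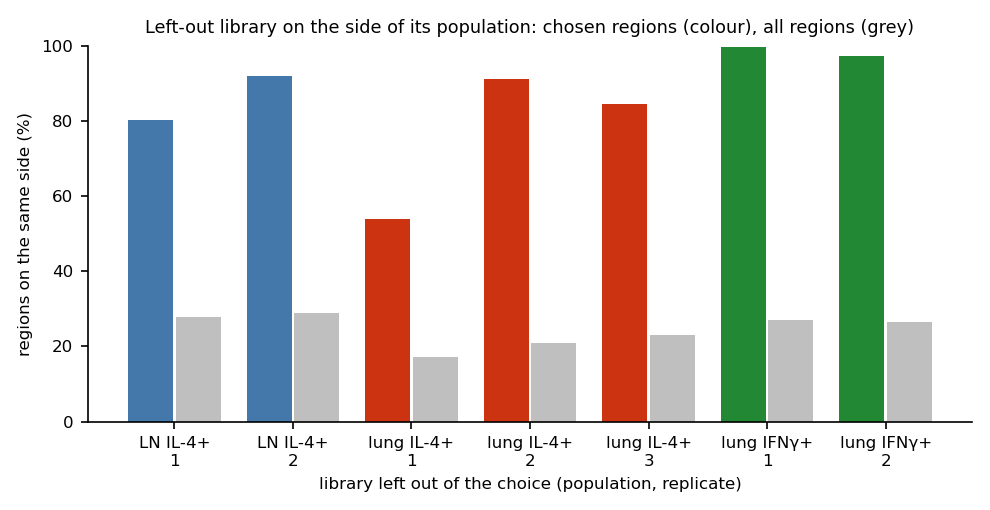
Share of regions in which a library left out of the choice lay on the side of its population (y axis, percent), for the regions chosen without it (coloured bars) and all regions (grey bars), by library (x axis). Lung IL-4+ replicate 1 had the lowest share of chosen regions, 54%, and the grey bars lie between 17.1% and 28.9%.

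Regions near genes of the Th2 program made up a larger part of the set than of the table. Of 773 regions nearest to the 40 genes of this list, 56 (7.24%) were open in lung IL-4+ cells only, against 0.717% of all regions, and they lay at 15 genes. Gata3 held 9 of the 56, Il1rl1 8, and Pparg, Epas1 and Tnfaip3 7 each. The list was chosen with earlier results of these data known, so the share is a description and no independent support. By the mirrored rules, 0.647% of the same 773 regions were open in LN IL-4+ cells only and 2.07% in lung IFNγ+ cells only. The 15 genes comprised the receptors Il1rl1 and Ccr4, the transcription factors Gata3, Pparg, Epas1 and Atf3, the cytokines Il13, Csf2, Il10, Il6, Lif and Tnfsf11, and Rad50, Tnfaip3 and Furin. Nearest gene is a label by distance, and no target gene was measured. Il4 and Il5 themselves were nearest to none of the regions.

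**Figure D2:**
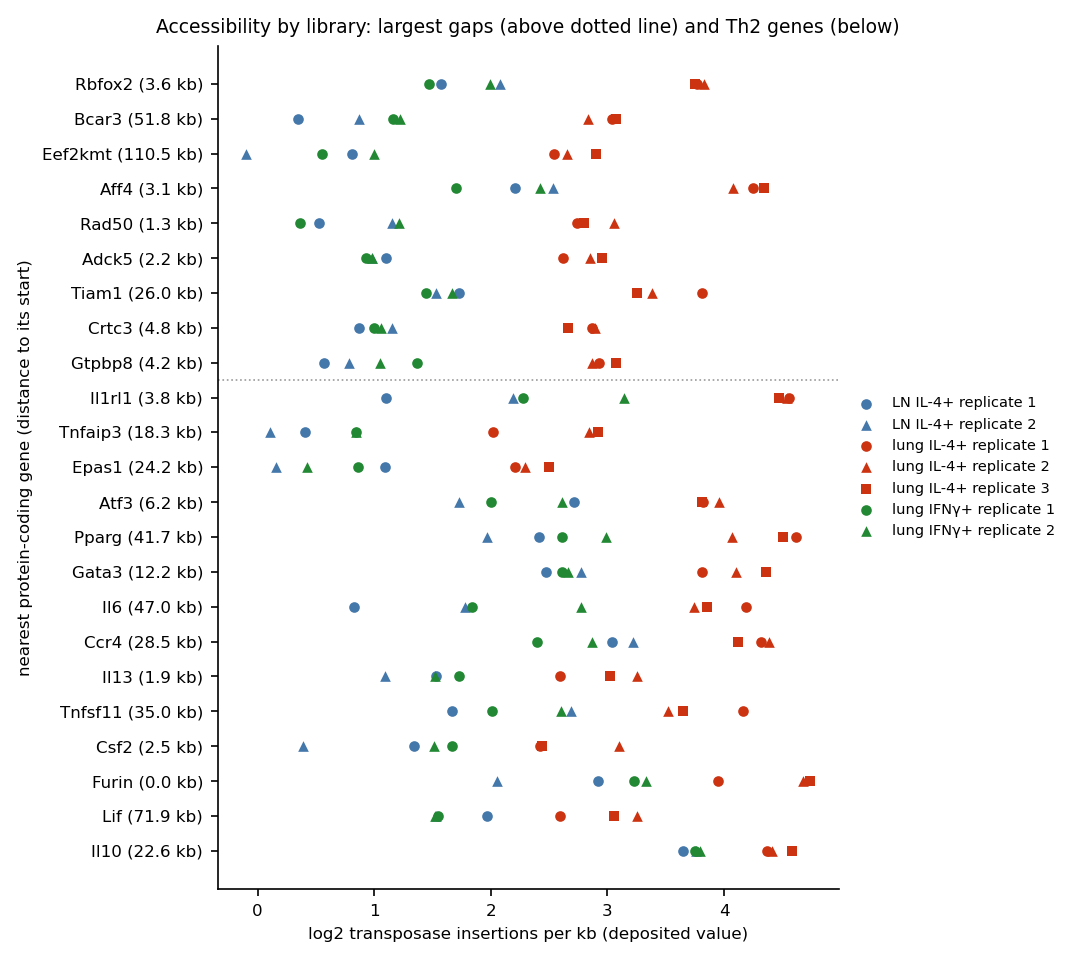
Accessibility (x axis, log2 insertions per kilobase) of 9 of the 10 regions with the largest gaps and of the region with the largest gap at each of the other Th2 genes (y axis, nearest gene and distance), 1 point per library. The 3 lung IL-4+ points lie to the right of the other 4 in each line, as the rule requires, and the gap narrows from 1.67 near Rbfox2 to 0.58 near Il10.

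Il1rl1 encodes ST2, and 8 of its 32 regions belonged to the set, from 29.9 kb upstream of the start of the gene to 7.5 kb inside it. The one with the largest gap lay 4.0 kb upstream (chr1:40425307-40425791). It had 4.56, 4.54 and 4.47 in the lung IL-4+ libraries, 1.10 and 2.19 in the LN IL-4+ libraries and 2.28 and 3.14 in the lung IFNγ+ libraries. Lung IFNγ+ replicate 2 was the highest of the others, and the order LN IL-4+, lung IFNγ+, lung IL-4+ held for all 7 libraries. A promoter region of 1195 bp, 0.9 kb inside the gene, had 2.13, 2.92 and 3.38 in lung IL-4+, 0.70 and 0.23 in LN IL-4+ and 1.03 and 0.93 in lung IFNγ+ libraries. Over the 8 regions the median difference was 2.23 on the log2 scale against LN IL-4+ cells and 1.14 against lung IFNγ+ cells, and over the other 24 regions of the gene it was 1.88 and 0.37.

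Pparg encodes PPARγ, a nuclear receptor activated by fatty acids that effector Th2 cells of tissues use. Of its 12 regions 7 belonged to the set, the largest share among the 13 genes that held at least 5. They formed 3 groups, at the first start of the gene (0.6 kb), around an internal start (78.8 to 83.7 kb) and further inside the gene (117.5 to 121.0 kb). The region at 121.0 kb, which contains the stretch printed above, had 4.62, 4.07 and 4.51 in lung IL-4+, 2.41 and 1.97 in LN IL-4+ and 2.61 and 2.99 in lung IFNγ+ libraries. The region at 78.8 kb covers the internal start (chr6:115439465-115440038) and had 3.37, 3.05 and 3.61, against 0.15 and 1.27 and against 1.85 and 2.00. Upstream of the gene, 1 further region of the set was nearest to Syn2.

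Gata3, the Th2 master regulator, was nearest to 107 regions, which reached far downstream of it, and 9 of them belonged to the set. One lay 28.9 kb from its start within the annotated gene (chr2:9860708-9861467), with 3.81, 4.10 and 4.36 in lung IL-4+, 2.47 and 2.77 in LN IL-4+ and 2.61 and 2.66 in lung IFNγ+ libraries. The other 8 lay between 299.9 and 773.0 kb downstream. The region at 773.0 kb was the most open of the 9, with 5.05, 5.05 and 5.11 in lung IL-4+ libraries, 3.49 and 3.89 in LN IL-4+ and 2.97 and 4.10 in lung IFNγ+ libraries. The region at 512.0 kb held 3 GATA matches in its central window.

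Chromosome 11 carries the Th2 cytokine genes, and 3 regions of the set were nearest to Il13, 4 to Rad50 and 3 to Csf2. Rad50 encodes a DNA repair protein, and its distal part holds the locus control region of the neighbouring Il4 and Il13 genes. The Rad50 region with the largest gap, 13.8 kb from the start (chr11:53693314-53693714), had 2.74, 3.06 and 2.80 in lung IL-4+, 0.53 and 1.15 in LN IL-4+ and 0.36 and 1.21 in lung IFNγ+ libraries. A region in the distal part, 44.1 kb from the start, was the most open of the 4, with 5.26, 5.33 and 5.23 against 3.27 and 3.77 and against 4.27 and 4.15. The region over the Il13 start had 4.19, 3.87 and 3.63 in lung IL-4+, 1.65 and 2.34 in LN IL-4+ and 2.62 and 3.01 in lung IFNγ+ libraries. The groups of values were ordered lung IL-4+, lung IFNγ+, LN IL-4+ there without overlap. Csf2, which encodes GM-CSF, had a region 2.8 kb downstream of its start with 2.42, 3.10 and 2.44, against 1.34 and 0.39 and against 1.67 and 1.51.

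Nfkb1, which encodes an NF-κB subunit, was nearest to the most regions of the set, 13 of 79. The largest gap was at 33.0 kb inside the gene, with 3.40, 3.19 and 3.76 in lung IL-4+, 2.01 and 2.11 in LN IL-4+ and 2.00 and 2.24 in lung IFNγ+ libraries, and 12 of the 13 lay downstream of the start. Tnfaip3, whose product A20 restrains NF-κB, had 7 of 50. Its region with the largest gap, 25.7 kb from the start, had 2.02, 2.84 and 2.92 in lung IL-4+, 0.41 and 0.11 in LN IL-4+ and 0.84 and 0.84 in lung IFNγ+ libraries. Epas1, which encodes the hypoxia-inducible factor HIF-2α, had 7 of 68. Its region with the largest gap, 46.3 kb inside the gene, had 2.21, 2.29 and 2.50 in lung IL-4+, 1.09 and 0.16 in LN IL-4+ and 0.86 and 0.42 in lung IFNγ+ libraries.

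Runx1, a transcription factor of T cell development, had 9 of 104 regions. That with the largest gap, 32.3 kb inside the gene, had 3.64, 3.62 and 4.13 in lung IL-4+, 1.44 and 1.73 in LN IL-4+ and 1.75 and 2.47 in lung IFNγ+ libraries. Upstream of the start the order of the other populations was turned, and the region at 45.5 kb had 5.13, 5.18 and 5.26 in lung IL-4+, 3.54 and 4.22 in LN IL-4+ and 2.33 and 3.32 in lung IFNγ+ libraries. Itpr1, which encodes a calcium channel of the endoplasmic reticulum, had 8 of 114, and its region with the largest gap had 2.03, 2.89 and 2.86, against 1.15 and 1.00 and against 0.69 and 0.81. In all, the 816 regions were nearest to 598 genes, of which 479 had 1 region, 39 had at least 3 and 13 at least 5, the last including Rora, Dusp10, Samsn1, Dhx40 and Tent5a with 5 each.

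**Figure D3:**
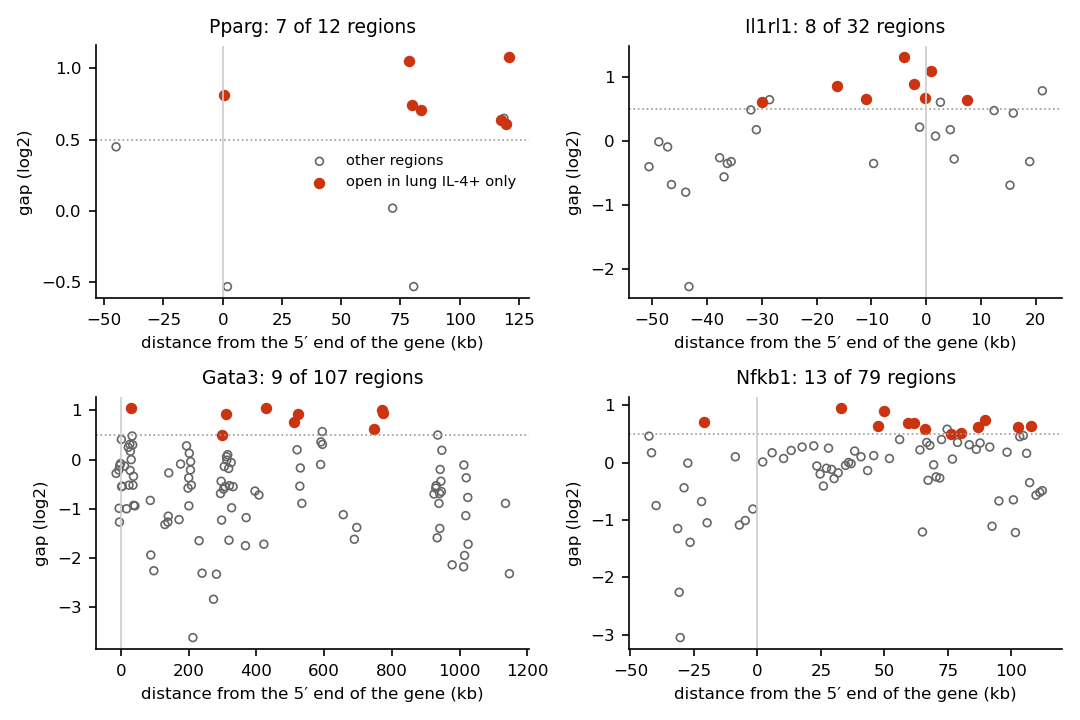
Gap (y axis, log2) of every region nearest to Pparg, Il1rl1, Gata3 and Nfkb1 against its distance from the 5′ end of the gene (x axis, kb, downstream positive). Filled points are regions open in lung IL-4+ cells only, open points are the other regions, the dotted line is the gap of 0.5, and open points above it had a mean density under 5 in lung IL-4+ cells.

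The largest gaps of the set lay away from genes of the Th2 list, with 1 exception at Rad50. The largest, 1.67, was in an intron of Rbfox2, which encodes a splicing factor, with 3.77, 3.83 and 3.75 in lung IL-4+, 1.57 and 2.08 in LN IL-4+ and 1.47 and 1.99 in lung IFNγ+ libraries. An intronic region of Bcar3, an adaptor of integrin signalling, followed with 3.04, 2.83 and 3.07, against 0.35 and 0.87 and against 1.16 and 1.22. Others of the first 10 were nearest to Eef2kmt, Aff4, Adck5, Tiam1, Crtc3 and Gtpbp8, with gaps of 1.50 to 1.55. Among regions within 1 kb of a protein-coding start, the largest gap (1.49) was at Ctsh, which encodes cathepsin H. Its region 374 bp from the start had 4.49, 3.92 and 4.08 in lung IL-4+, 1.71 and 1.80 in LN IL-4+ and 1.87 and 2.43 in lung IFNγ+ libraries. Promoter regions of Gramd1b, a sterol transporter, Adcy4, an adenylyl cyclase, and Ryr3, a calcium release channel, followed with gaps of 1.36, 1.32 and 1.12.

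Other lists held fewer of the regions. In the PPAR and lipid list 10 of 229 regions (4.37%) belonged to the set, 7 of them at Pparg itself and 1 each at Cpt1a, Mgll and Plin2. The Cpt1a promoter, of the enzyme that brings fatty acids into mitochondria, had 4.41, 3.69 and 3.77 in lung IL-4+, 2.63 and 2.21 in LN IL-4+ and 1.99 and 2.64 in lung IFNγ+ libraries. In the list of tissue residency and egress it was 9 of 681 (1.32%), 5 of them at Rora, and in that of AP-1 and BATF factors 8 of 553 (1.45%), at Maf, Batf, Atf3, Fos and Nfe2l2. The region 18.3 kb from Batf had 2.29, 2.65 and 2.54 in lung IL-4+, 0.77 and 0.52 in LN IL-4+ and 0.95 and 0.92 in lung IFNγ+ libraries. The Tfh list had 9 of 823 (1.09%), at Cxcr4, Maf, Batf and Pdcd1, and the regulatory T cell list 2 of 263 (0.76%), at Il10 and Nrp1. Of the Th1 list 3 of 395 regions (0.759%) belonged to the set, at Runx3 and Il18rap, while 23% of the same regions were open in lung IFNγ+ cells only.

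Markers of other cells that a lung sort could hold were examined in the same libraries. Of the lists for eosinophils, basophils and mast cells (65 regions), lung macrophages and myeloid cells (74), B cells (43), epithelium, stroma and endothelium (121) and T cell identity (319), 0 regions belonged to the set, and of the CD8 T and NK cell list 1 of 69 did, at the integrin gene Itga2. Over all regions the share was 0.717%. Lists this short are near that share at 0 regions, so these counts do not tell of the part of other cells. In the eosinophil, basophil and mast cell list 12 of 17 genes had no region at their promoter in the table, Mcpt8, Prg2, Epx and Siglecf included. Over the other 5 promoters of that list the summed density was 23.4 to 25.7 in LN IL-4+, 34.4 to 40.1 in lung IL-4+ and 34.5 to 37.5 in lung IFNγ+ libraries. For the 8 of 18 myeloid genes with a promoter region the sums were 64 to 88.2, 52.6 to 69.6 and 61.1 to 68.7 in the same order (Lyz2, Marco and Adgre1 had none), and for 7 of 12 B cell genes 93.9 to 128, 63.7 to 110 and 88.8 to 95.4 (Cd79a and Ms4a1 had none). For 8 of 16 genes of epithelium, stroma and endothelium they were 102 to 104, 84.3 to 103 and 91.7 to 93.6 (Sftpc and Scgb1a1 had none), and for 4 of 8 CD8 T and NK cell genes 27.6 to 30.8, 30.4 to 34.7 and 33.1 to 36.7 (Cd8a and Ncr1 had none). Other genes of these lists had a promoter density of at least 5 in every library. They were Cd200r3 and Hdc (eosinophils, basophils and mast cells), Cd68, Cebpa and Spi1 (myeloid) and Blk, Cd74, Ebf1 and Pax5 (B cells). Cdh1, Col1a1, Epcam, Foxj1, Pdgfra and Pecam1 (epithelium, stroma and endothelium) and Itga2 (CD8 T and NK cells) were the rest. Group 2 innate lymphoid cells share most of their program with Th2 cells, and their list had 23 of 438 regions (5.25%), of which 17 were at Gata3 and Il1rl1, which stand on both lists. Its summed promoter density was 248 to 295 in LN IL-4+, 340 to 350 in lung IL-4+ and 324 to 346 in lung IFNγ+ libraries. The part of other cells in the set was not tested. The sort required CD3 and CD4, and in bulk libraries a change in the share of cells and a change per cell cannot be told apart.

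The pairwise contrasts with lung IL-4+ cells were part of the choice, so their calls are given as a description. With limma over all 113820 regions, where a call needed a Benjamini-Hochberg adjusted p under 0.05 together with a 3-fold difference, 272 of the 816 regions (33.3%) were called higher in lung IL-4+ than in LN IL-4+ cells, where the background was 1.05% of all regions. Against lung IFNγ+ cells 57 (6.99%) were called, with a background of 0.108%. Both calls were made for 30 regions (3.68%), and these 30 were all that the table held.

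The contrast of lung IFNγ+ with LN IL-4+ cells was not itself part of the rule, although the rule capped both populations through their highest library. It asks which of the other populations was nearer to lung IL-4+ cells. By limma with Benjamini-Hochberg adjustment, 10 of the 816 regions (1.23%) were called higher in lung IFNγ+ cells, against a background of 2.17% of all regions. None (0) were called higher in LN IL-4+ cells, against 0.862%. With voom on the rebuilt counts 0 were called higher in LN IL-4+ cells, against 2796 over all regions. At an unadjusted p below 0.05 there were 14 higher in lung IFNγ+ and 1 higher in LN IL-4+ cells (background 4.4% and 2.92%). Both shares were below their background, but at a fold change of 2 the first was 28 regions (3.43%), above its background of 2.93%.

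By sign, the lung IFNγ+ mean was above the LN IL-4+ mean in 562 of the 816 regions (68.9%), against 48.5% of all regions. Both lung IFNγ+ libraries were above both LN IL-4+ libraries in 291 (35.7%, background 26.5%), and both were below in 86 (10.5%, background 27.2%). The median difference was 0.23 on the log2 scale, with a range from -1.77 to 2.17, and -0.03 over all regions. Against each LN IL-4+ library alone the lung IFNγ+ mean was above in 64.3% (replicate 1) and 61.8% (replicate 2, which is in the same class of spread as the lung IFNγ+ libraries), with 49.7% and 47.8% of all regions. On voom values of the rebuilt counts the direction turned, with a median of -0.21 and 36.9% above, but the median of all regions moved to -0.48 and their share to 30.4%. The LN IL-4+ libraries also spread more than the lung IFNγ+ libraries over all regions (median SD 0.42 and 0.15), and the part of this in the difference under a rule that caps the highest library was not tested.

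The SE and adjusted p of each region below come from the fit of all 7 libraries. The rule had already used the values of all 3 populations, so these p-values are a description and no independent support. Lung IL-4+ libraries spread less in the set (median SD 0.21) than over all regions (0.44). With only the LN IL-4+ and lung IFNγ+ libraries fitted, 0 regions of the set were called. Of the 10 called regions, that with the lowest adjusted p was a Pparg region 522 bp from the internal start (chr6:115440497-115440990). It had 1.36 and 2.17 in LN IL-4+, 3.48 and 4.10 in lung IFNγ+ and 4.98, 4.84 and 5.11 in lung IL-4+ libraries, without overlap between the 3 populations. The lung IFNγ+ mean exceeded the LN IL-4+ mean by 2.03 ± 0.32 (log2, SE, n = 2 and 2, limma adjusted p = 0.008). The call was also made in 14 of 18 other settings. A 2-fold minimum on the same fit was among these settings and keeps each call by definition. A region 58439 bp from the start of Itprid2 had the largest difference, 2.17 ± 0.48 (limma adjusted p = 0.0336), with -0.66 and -0.31 in LN IL-4+, 1.37 and 1.99 in lung IFNγ+ and 2.75, 3.06 and 2.54 in lung IL-4+ libraries, and was called in 9 of 18. Both regions held 3 GATA matches in their central window. The promoter region of Pold3, a DNA polymerase subunit, had 0.40 and 0.57, 2.42 and 2.51, and 3.17, 3.05 and 3.13 in the same order, a difference of 1.98 ± 0.35 (limma adjusted p = 0.013), called in 11 of 18.

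The other 7 regions were 2 at Il1rl1 and 1 each at D10Jhu81e, Il18rap, Runx3, Ergic1 and Syn2, with lung IFNγ+ values 1.59 to 1.85 above those of LN IL-4+ cells. Il18rap encodes a subunit of the IL-18 receptor, lies near Il1rl1 on chromosome 1 and stands on the Th1 list. Its region had 0.98 and 0.26 in LN IL-4+, 2.28 and 2.40 in lung IFNγ+ and 3.96, 3.62 and 3.18 in lung IL-4+ libraries. The Il1rl1 promoter region over the start had 0.62 and 1.34, 2.55 and 2.84, and 3.51, 4.00 and 4.25 in that order. Without lung IFNγ+ replicate 1 or 2 none (0) of the set was called, and the calls over all regions fell from 2469 to 92 and 166. Without lung IL-4+ replicate 2 there were 3 calls in the set (1715 over all regions), and without LN IL-4+ replicate 2 there were 40 (4.9%), against 4575 over all regions (4.02%).

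The 816 regions lay mostly away from transcription starts. Within 1 kb of an annotated start lay 104 (12.7%, exact binomial 95% interval 10.5 to 15.2), against 27.8% of all regions, 15.2% of those open in LN IL-4+ cells only and 11.6% of those open in lung IFNγ+ cells only. Introns held 360 (44.1%, against 37.2% of all regions) and intergenic DNA 274 (33.6%, against 26.6%). The median distance to a protein-coding start was 13336 bp, against 7402 bp over all regions. Median length was 699 bp against 486.5 bp, while the regions of density 5 or more in lung IL-4+ cells had a median of 741 bp. Median GC content was 45.9% against 46.9%. Within 10 kb of another region of the set lay 191 (23.4%).

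Consensus sequences were searched in a central window as long as the shortest region of the table, so that long regions had no more bases to match. The GATA consensus AGATAA occurred in the central window of 361 of the 816 regions (44.2%, exact binomial 95% interval 40.8 to 47.7), against 19.8% of all regions and 18.1% of those at density 5 or more in lung IL-4+ cells. Of the regions open in LN IL-4+ cells only and in lung IFNγ+ cells only, 20.3% and 19.4% held it. At least 2 GATA matches occurred in 106 regions (13%, against 2.79% of all) and at least 3 in 25 (3.06%, against 0.329%). The share was 45.1% away from transcription starts, where all regions had 21.9%, and 38.5% at starts, where they had 14.4%. Among the 204 regions of the set with the lowest GC content it was 51.5%, against 29.5% of all regions in that GC range, and among the 204 with the highest 33.8%, against 11.8%.

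The share rose with the gap, a measure that uses no sequence. Among regions at density 5 or more in lung IL-4+ cells it was 17.7% at a gap of -0.5 to 0, 28.8% at 0 to 0.25, 33.9% at 0.25 to 0.5, 39.7% at 0.5 to 0.75, 45% at 0.75 to 1 and 59% at 1 and over, where 134 regions were counted (interval 50.1 to 67.4). The GATA share thus began to rise before the cutoff and had no step at it. Median GC content fell along the same bins, from 50.6% at a gap of -0.5 to 0 to 45.4% at 1 and over. Over all regions the GATA share was higher at low GC content, as given above. The part of GC content in the rise of the GATA share was not tested. When the rule was applied without 1 library, the share among the regions it gave was between 30.4% (without lung IL-4+ replicate 1) and 43.1%. When it was applied to quantile-normalized, median-centred, pseudocount or voom values, the share was between 42.3% and 46.4%. The sets without 1 library held 794 to 816 of the same 816 regions. Among their regions outside the 816 the share was 24.7% (1918 regions, without lung IL-4+ replicate 1) to 40.8% (422, without lung IFNγ+ replicate 2). It was 29.2% of 154 such regions on quantile-normalized and 41.7% of 978 on voom values, and the pseudocount set had none.

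**Figure D4:**
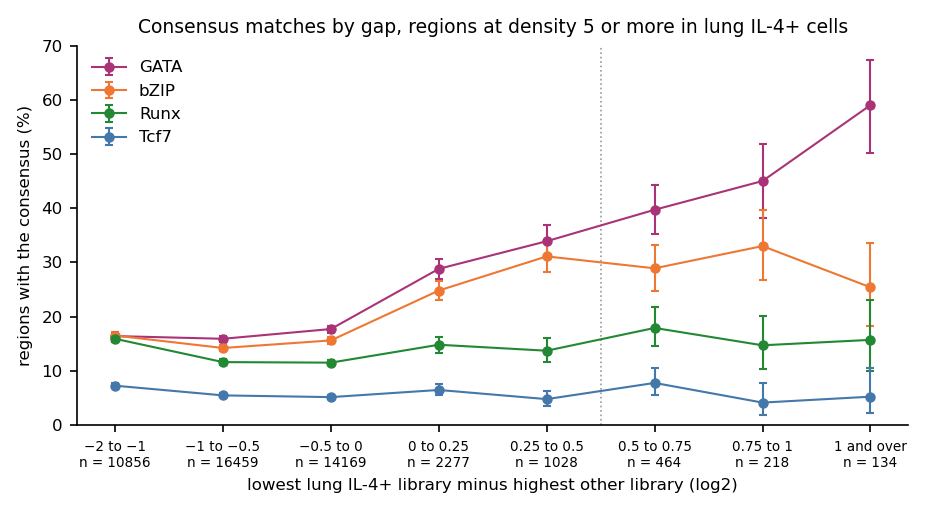
Share of regions with the GATA, bZIP, Runx or Tcf7 consensus in the central window (y axis, percent, bars are exact binomial 95% intervals) by gap (x axis, log2, with the number of regions), for regions at density 5 or more in lung IL-4+ cells. The GATA share climbs from 17.7% at a gap just below 0 to 59% at 1 and over, the bZIP share levels off between 25.4% and 33% to the right of the dotted cutoff, and Runx and Tcf7 stay under 18% in the bins plotted, which start at a gap of -2 (Runx was at 19.8% between -3 and -2).

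The bZIP consensus TGANTCA was found in 240 regions (29.4%, interval 26.3 to 32.7), against 16% of all regions, 15.8% of those open in LN IL-4+ cells only and 17.6% of those open in lung IFNγ+ cells only. Among regions at density 5 or more it was 15.6% at a gap of -0.5 to 0 and 31.1% at 0.25 to 0.5, and 25.4% at 1 and over, so that it did not keep rising with the gap as the GATA share did. Both consensus sequences occurred together in 115 regions (14.1%), against 3.6% of all regions, and neither in 330 (40.4%), against 67.8%. The composite of bZIP and IRF sites, which contains the bZIP consensus, occurred in 5 regions (0.613%, against 0.408%).

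The nuclear receptor core site AGGTCA was found in 237 regions (29%, interval 25.9 to 32.3), against 22.9% of all regions, 18.8% of those open in LN IL-4+ cells only and 25% of those open in lung IFNγ+ cells only. The PPAR consensus, a direct repeat of that core site, occurred in 2 regions (0.245%, interval 0.0297 to 0.883, against 0.094%), too few to compare. The ROR consensus TAGGTCA, also built on the core site, was found in 5.02%, against 4% of all regions and 5.15% of those open in lung IFNγ+ cells only.

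The sequences with the highest shares in the other populations were closer to the share of all regions here. The Runx consensus AACCACA was in 16.7% of the regions, against 13.6% of all regions and 32.4% of those open in lung IFNγ+ cells only, and the T-box consensus AGGTGTGA in 1.59%, against 2.2% and 7.83%. The Tcf7 consensus ATCAAAG was in 6.37%, against 7.13% of all regions and 17.5% of those open in LN IL-4+ cells only. NFAT (TGGAAAA) was in 9.07%, against 9.58% and 12.6%, and EGR2 (GCGTGGGNG) in 0.245%, against 1.26% and 2.4%. The STAT consensus TTCNNNGAA was in 12.6%, against 12.3% of all regions, and the STAT6 form with a longer spacer in 12.1%, against 10.7%. The shares for CTCF (1.96% against 8.19%), ETS (CCGGAAGT, 0.49% against 1.27%), NF-κB (0.613% against 0.806%) and the E-box CACGTG (6.86% against 6.9%) were below or near those of all regions. A match is a description of letters and not of binding, and single letters of a site that differ from the consensus are missed.

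**Figure D5:**
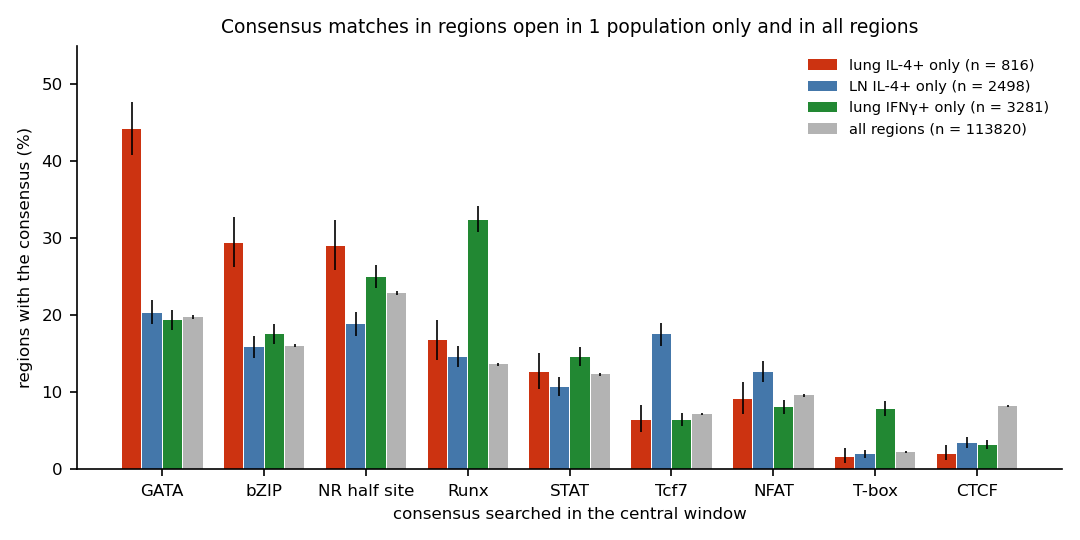
Share of regions with each consensus in the central window (y axis, percent, lines are exact binomial 95% intervals) for 9 of the consensus sequences (x axis) in the regions open in 1 population only and in all regions. GATA, at 44.2%, and bZIP, at 29.4%, are highest in the regions open in lung IL-4+ cells only, Runx and T-box in those open in lung IFNγ+ cells only, and Tcf7 in those open in LN IL-4+ cells only.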

How the data were processed

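ATAC-seq libraries of sorted CD4+ T cells (2 of LN IL-4+, 3 of lung IL-4+ and 2 of lung IFNγ+ cells) were analysed from the table that the authors deposited, which gives 1 log2 value of insertions per kilobase for each of 113820 regions and 7 libraries. Per the methods, the authors trimmed reads with skewer, aligned them with Bowtie2 (2.3.2), marked duplicates with Picard, called summits with MACS2 (2.1.1) in each library, merged them into 1 set of regions without chromosome Y, and scaled the insertions with voom in limma (3.38.3, R 3.5.1). The values of all libraries were close to 1 common distribution. Such scaling forces the libraries to the same overall level. Counts were rebuilt from tied values and are lower bounds, and 0 columns of other samples were present.

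The members and lists were chosen with earlier results of these data known. Regions were annotated with GENCODE M21 on GRCm38, and a promoter lay within 1 kb of any annotated start. Contrasts were fitted over all regions and libraries with limma (3.58.1, R 4.3.3), with a trended prior and Benjamini-Hochberg adjustment (calls at adjusted p under 0.05 and 3-fold). Consensus sequences were searched on both strands of a central window as long as the shortest region, read with pysam (0.24.0) from the RefSeq GRCm38 genome. Intervals are exact binomial (95%) and cover counting error only. Regions were named by rule: the 10 largest gaps, the largest gap at each Th2 gene, the 5 largest at protein-coding starts, up to 3 per direction called in lung IFNγ+ against LN IL-4+, the largest at the 5 genes with most members, the nearest to the cutoff, and up to 2 per list; some of these are not reported here. Other regions at these loci, and the other 7 called regions, were named after their values were seen. Alternatives changed scaling, pseudocount, filter, thresholds, window, fit and libraries. Other tools were Python (3.11.15), numpy (2.4.6), pandas (2.3.3), scipy (1.17.1) and matplotlib (3.10.9).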

Additional observations from a re-analysis of the deposited data

How the results depend on the processing

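The number of regions open in lung IL-4+ cells only, 816 here, was 1519 on voom values of the rebuilt counts, which shared 541 of them (66.3% of the 816 and 35.6% of the 1519). It was 389 at a density of 10, 1844 at a gap of 0.25 and 134 at a gap of 1. Leaving out 1 library gave 904 to 2716 regions, the most (2716) without lung IL-4+ replicate 1, then 1468 when replicate 3 of that population was dropped, 1292 when LN IL-4+ replicate 1 was and 1238 when lung IFNγ+ replicate 2 was. The 10 calls of lung IFNγ+ over LN IL-4+ cells (2469 over all regions) became 0 when only these populations were fitted (1789 over all regions), 1 with a pseudocount of 1 (2134), 3 with voom on rebuilt counts (2218), 28 at a fold change of 2 (3332) and 0 to 40 when 1 library was left out (40 of 4575 when LN IL-4+ replicate 2 was dropped, 3 of 1715 when replicate 2 of lung IL-4+ was, and 0 of 92 or 166 when a lung IFNγ+ library was). The cause was not tested. Calls in the other direction were 0 in each setting that kept at least 2 libraries per population. Over all regions these settings gave 88 (replicate number as a block) to 2796 (voom on rebuilt counts) such calls. The GATA share of 44.2% was 27.8% in a narrower window (10.4% of all regions), 63.2% in whole regions (29.6%), 66.4% with NGATAA (40%), and 30.4% to 43.1% without 1 library. The last alternative, the other scalings of the rule behind the GATA share and the split by start were chosen after seeing the data. The share within 1 kb of a start, 12.7%, was 19.2% within 2 kb (36.4% of all regions) and 8.09% within 0.5 kb (21.8%).

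With the replicate number as a block, 0 regions of the set were called higher in lung IFNγ+ cells (468 over all regions), and 2 with the block and a GC correction (914). Deviations of same-numbered libraries correlated between -0.542 and 0.0574. With 2 libraries in a population the deviations mirror each other, and the classes of spread cross the populations. The correlations thus cannot show whether libraries were paired, and the numbers were not taken to pair them. With 2 or 3 libraries per population, 1 library decides each limit of the rule, and the fewest insertions were in lung IL-4+ replicate 3.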

Other observations

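The 30 regions with calls over both other populations, given as values only, included several outside the loci described. Near Ldha, which encodes lactate dehydrogenase A, an intergenic region had 4.60, 4.90 and 4.58 in lung IL-4+, 2.09 and 2.44 in LN IL-4+ and 2.86 and 3.32 in lung IFNγ+ libraries. An exonic region of Il10ra, which encodes the IL-10 receptor, had 5.45, 5.87 and 5.93, against 4.00 and 4.24 and against 3.47 and 4.12. An intronic region of Soat1, which encodes a cholesterol esterifying enzyme, had 4.33, 4.05 and 4.32, against 2.25 and 2.73 and against 2.20 and 2.96. These 3 were chosen after their values were seen.

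By chromosome, the share of regions that were open in lung IL-4+ cells only ran from 0.183% on X (4 of 2181) to 1.12% on chromosome 11 (81 of 7245), with 1.02% on chromosome 9 (61 of 5980).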
